A study of Arabidopsis thaliana with 4 samples.

Results

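COR15A, COR15B, COR47 and LTI30 of Arabidopsis thaliana are 4 genes known for their response to cold and drought, and they are described here in axillary shoots and axillary buds. They were taken as the probe sets that the array's platform annotation pairs with these 4 names, which gave 1 probe set for each gene, or 4 of the 22746 probe sets that are not controls. The samples were axillary shoots harvested 24 h after decapitation (2 arrays) and axillary buds harvested before decapitation (2 arrays), all from Col-0, a standard laboratory accession with no mutation or transgene named in the labels. Plants were grown in a mix of soil and vermiculite at 22°C under continuous light. Decapitation, the removal of the main shoot apex, releases the axillary buds below it in many plants. RNA was measured on ATH1 GeneChips, arrays of short oligonucleotide probes for Arabidopsis transcripts, and each value is a MAS5 signal, a linear intensity per probe set on arrays scaled to a common mean. Whether the replicate arrays come from separate plants is not stated in the labels; p-values therefore reflect only how far these samples spread, which may be technical. There was no later sample from intact plants, so decapitation, wounding, age and harvest time cannot be told apart.

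All 4 proteins are late embryogenesis abundant (LEA) proteins, hydrophilic proteins that accumulate in maturing seeds and in tissues losing water or freezing. COR15A and COR15B are a pair of small proteins of the chloroplast stroma that protect membranes during freezing. COR47 and LTI30 are dehydrins, LEA proteins that share a lysine-rich repeat; COR47 is acidic, whereas LTI30 is basic and binds membranes. In Arabidopsis such genes are switched on by CBF/DREB transcription factors in the cold and by abscisic acid during drought, and abscisic acid is also known as a hormone that restrains axillary bud outgrowth.

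The signal of all 4 genes was lower in shoots 24 h after decapitation than in buds before it. The decreases ranged from 1.81-fold for COR15B to 5.19-fold for LTI30, and in each gene both shoot arrays lay below both bud arrays. All 4 passed the test across the array (limma with Benjamini-Hochberg adjustment, threshold 0.05), where 22.1% of the 13648 probe sets tested were called in either direction, 12% were called lower, 10.2% were called higher and 35.5% had both shoot arrays below both bud arrays. The median log2 fold change was −1.39 for the 4 genes and −0.06 over the whole array. The 4 genes were chosen with earlier results of these data known, so neither this contrast nor their calls are independent support. Because these are whole organs, fewer cells that express a gene and less RNA per cell cannot be told apart. The calls depended on array 1 of the shoots. Without it the numbers called dropped to 432 lower and 230 higher, against 1635 and 1388 with all arrays, and 1 of the 4 genes, LTI30, passed.

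**Figure D1:**
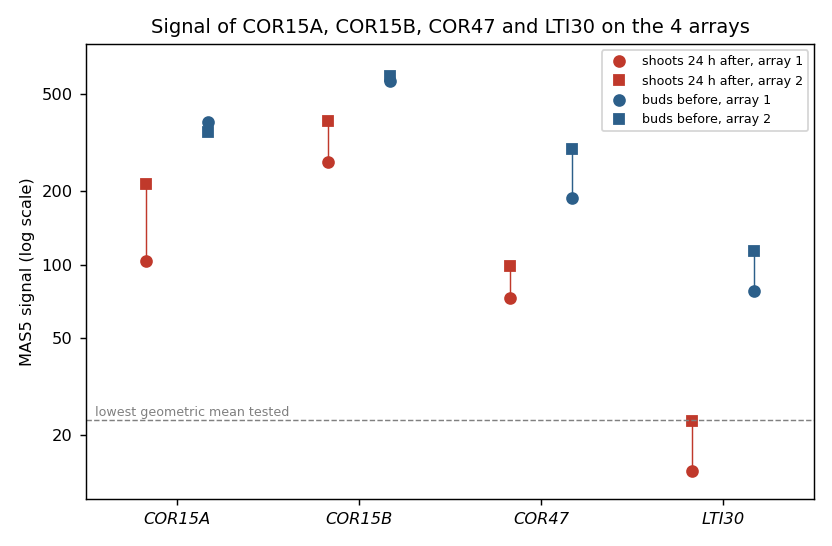
MAS5 signal (log scale) of COR15A, COR15B, COR47 and LTI30 on the 2 shoot arrays (red, left of each pair) and the 2 bud arrays (blue, right), with array 1 as circles, array 2 as squares, and a line joining the arrays of a group. In every gene both red points lie below both blue points, and both shoot points of LTI30 lie below the lowest geometric mean signal tested (dashed line, 23.1).

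LTI30 (AT3G50970), the basic dehydrin, had the largest decrease of the 4. Its signal was 14.3 and 23.0 on the shoot arrays, against 78.0 and 113.9 on the bud arrays. The groups were well apart, since the lower bud array was 3.40-fold above the higher shoot array. It fell 5.19-fold (log2 fold change −2.38, SE 0.33, 95% interval −3.12 to −1.63, limma adjusted p = 0.00416), and 0.447% of the tested probe sets had a larger decrease. Both shoot signals lay below 23.1, the lowest geometric mean signal admitted to the test, so the bud signals brought it past the filter. They were above the 27 probe sets for Bacillus control genes, whose highest signals were 8.48 and 10.2 on the same arrays. The size of the fold is therefore less certain than its direction. With dim signals set to 23.1 the decrease was 4.08-fold (limma adjusted p = 0.00490), and with a pseudocount of 16 it was 3.21-fold. LTI30 stayed lower in shoots under all 12 alternatives run, which reuse the same 4 arrays. Because its bud signals brought it into the test, its passing there is not separate support.

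COR47 (AT1G20440), the acidic dehydrin, had a signal of 73.2 and 98.7 on the shoot arrays, against 187.9 and 298.2 on the bud arrays. The spread within the buds was wider than in most probe sets: bud array 2 was 1.59-fold above bud array 1, and 10.9% of the tested probe sets had a larger gap. COR47 fell 2.78-fold (log2 fold change −1.48, SE 0.28, 95% interval −2.11 to −0.85, limma adjusted p = 0.0100). The fold was 3.51 without bud array 1 and 2.21 without bud array 2, and the call was lost without shoot array 1 (2.397-fold, adjusted p = 0.0655), while over the other alternatives adjusted p lay between 0.000365 and 0.0205.

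COR15A (AT2G42540), the chloroplast cryoprotective protein for which the pair is named, had a signal of 103.2 and 214.1 on the shoot arrays, against 384.3 and 348.4 on the bud arrays. The bud arrays nearly coincided, whereas shoot array 2 was 2.08-fold above shoot array 1, a gap exceeded by 2.19% of tested probe sets. It fell 2.46-fold (log2 fold change −1.30, SE 0.32, 95% interval −2.04 to −0.56, limma adjusted p = 0.0251). Set against the buds, shoot array 1 alone gave 3.55-fold and shoot array 2 alone 1.71-fold. With shoot array 1 left out the call was lost. In the alternatives that kept all arrays, spike scaling aside, limma adjusted p lay between 0.00301 and 0.0475.

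COR15B (AT2G42530), the partner of COR15A, had a signal of 263.6 and 385.4 on the shoot arrays, against 562.3 and 592.7 on the bud arrays. Its groups stood closest together, with the lower bud array 1.46-fold above the higher shoot array. COR15B fell 1.81-fold (log2 fold change −0.86, SE 0.23, 95% interval −1.39 to −0.32, limma adjusted p = 0.0345), and 11.2% of the tested probe sets had a larger decrease. This call was the least firm. It was lost without shoot array 1 (1.498-fold, adjusted p = 0.231). It was also lost without bud array 1 (1.86-fold, adjusted p = 0.0670), without bud array 2 (1.76-fold, adjusted p = 0.0757), under equal array medians (1.64-fold, adjusted p = 0.0634) and with no filter (1.81-fold, adjusted p = 0.0612), and over all 12 alternatives adjusted p lay between 0.00445 and 0.231.

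**Figure D2:**
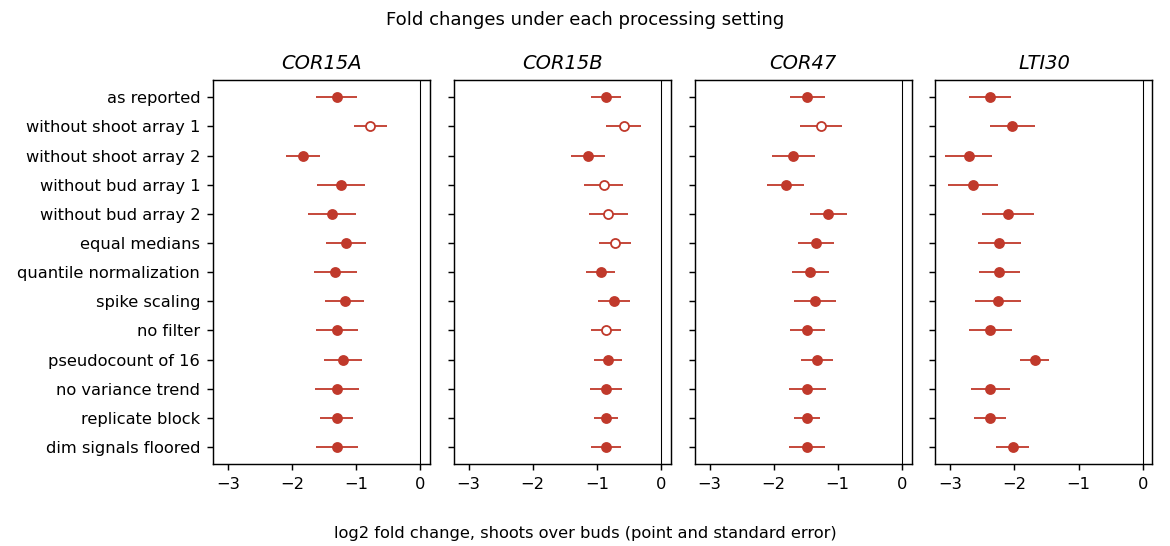
Log2 fold change of shoots over buds (point) with its standard error (bar) for each gene under the reported setting and 12 alternatives; filled points have an adjusted p of 0.05 or less and open points do not. All points lie below 0, LTI30 is filled throughout, and COR15B is open under 5 alternatives, 3 of which leave out an array.

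The arrays of a group differed in the same direction in several of the genes. All 4 were higher on shoot array 2 than on shoot array 1, by 1.35-fold for COR47 to 2.08-fold for COR15A. Of all tested probe sets 43.8% were higher on shoot array 2, and of those called lower in shoots 67.2% were. On the bud arrays COR47 and LTI30 were higher on array 2 by 1.59-fold and 1.46-fold, while COR15A (1.103-fold) and COR15B (1.054-fold) differed little. The 3' to 5' ratio of the actin control probe sets, a sign of RNA integrity and labelling, was 0.990 and 1.14 on the shoot arrays and 1.66 and 1.38 on the bud arrays. That of an older set of actin control probe sets was 2.13 and 3.19 on the shoot arrays and 5.81 and 6.67 on the bud arrays. Both actin ratios separated the groups, whereas that of GAPDH, at 1.14 and 0.938 on the shoot arrays and 1.198 and 1.08 on the bud arrays, overlapped between them. That of ubiquitin, at 0.718 and 0.887 on the shoot arrays and 0.704 and 0.963 on the bud arrays, also overlapped. The part of these ratios in the decreases was not tested.

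The fitted decreases of the 4 genes differed in size, though no difference between them could pass a test with 4 arrays. Within each array the log2 difference between a pair of genes was taken, and its change was compared between shoots and buds for all 6 pairs. With 2 arrays in each group, 0.333 is the smallest p that an exact two-sided permutation test allows, so none of these differences could pass. The change of COR15B was smaller than that of LTI30 by 1.52 on the log2 scale, or 2.87-fold, and the pair's difference did not overlap between the groups (exact p = 0.333, adjusted over 6 pairs 0.4). LTI30 also fell further than COR47, the other dehydrin, by 0.90, with within-array differences of 2.35 and 2.104 in shoots and of 1.27 and 1.39 in buds (exact p = 0.333, adjusted 0.4). In both pairs the change was larger than the SD between the arrays of either group. Both sizes rest on dim shoot signals of LTI30: the first was 0.86 with a pseudocount of 16 and 1.17 with dim signals set to 23.1, and the second 0.36 and 0.55.

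COR15A and COR15B lie next to each other in the TAIR10.1 gene set. The log2 difference of COR15A minus COR15B was −1.35 and −0.85 on the shoot arrays and −0.55 and −0.77 on the bud arrays. Its change was −0.44, beside an SD of 0.36 between the shoot arrays (n = 2), and the exact p was 0.333. COR15A and COR47 had changes that could not be placed in order: their difference changed by 0.18, the groups overlapped, and without bud array 2 or shoot array 2 COR15A fell further (changes of −0.23 and −0.13). COR15A and COR15B are close copies, so cross-hybridization between their probe sets is possible, and the probe sequences were not analysed here. AT2G42520, the neighbour of COR15B on its other side, had signals of 195.2 and 165.8 in shoots and of 142.1 and 115.3 in buds (log2 fold change 0.49, limma adjusted p = 0.134). AT1G20430, next to COR47, had 237.0 and 233.3 in shoots and 190.3 and 197.7 in buds (log2 fold change 0.28, adjusted p = 0.323). Neither neighbour passed the test.

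Other genes of the cold response were looked for in a list of 35 loci that includes the 4 genes. The list was chosen with earlier results of these data known, so its counts are not independent support. A named probe set was found for 7, all of them tested; of these 6 fell and 0 rose, against 12% called lower and 10.2% called higher among all tested probe sets. As 4 of the 6 are the genes described above, 2 of the 3 further loci fell. The other 28, CBF genes among them, were not analysed here. Of the 3 loci beyond the 4 genes, COR27 and AT4G33980 fell and STZ did not pass. COR27, a cold-regulated gene that is also tied to the circadian clock, had signals of 24.1 and 41.2 in shoots and of 274.1 and 210.5 in buds. It fell 7.63-fold (log2 fold change −2.93, SE 0.30, limma adjusted p = 0.00185). AT4G33980 had signals of 11.3 and 12.1 in shoots, just above the highest Bacillus controls, and of 79.8 and 57.1 in buds. Only its bud signals brought it past the filter on the mean, as for LTI30. It fell with a fitted fold of 5.77 (limma adjusted p = 0.00269), of uncertain size. With a pseudocount of 16 its log2 fold change was −1.60, and −1.55 with dim signals set to 23.1. Since the bud signals admitted AT4G33980 to the test, neither its call nor its place in the counts above is read as support. STZ, a zinc-finger repressor induced by cold and salt, had 88.0 and 31.1 in shoots and 36.2 and 39.2 in buds (log2 fold change 0.47, adjusted p = 0.474). It stood out on shoot array 1, and without shoot array 2 it was called higher (log2 fold change 1.22, adjusted p = 0.0390). Without shoot array 1 fewer of the 7 loci passed, as on the whole array. The log2 fold changes were then −2.04 for LTI30, −2.54 for COR27 and −2.48 for AT4G33980. Those of COR47, COR15A, COR15B and STZ were −1.26, −0.77, −0.58 and −0.28.

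**Figure D3:**
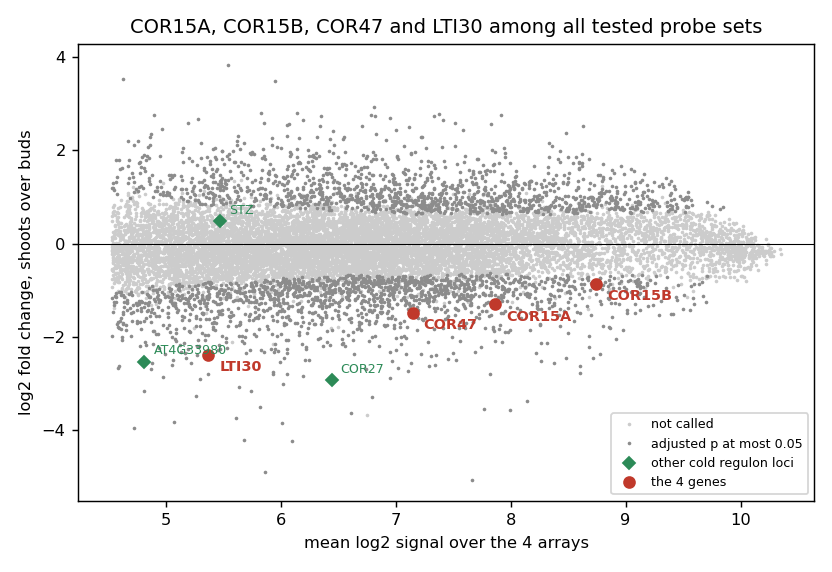
Log2 fold change of shoots over buds against the mean log2 signal over the 4 arrays for the 13648 probe sets tested, with those called in dark grey. COR15A, COR15B, COR47 and LTI30 (red) and COR27 and AT4G33980 (green) lie among the called decreases, and STZ (green) lies among the probe sets not called.

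No dehydrin gene beyond COR47 and LTI30 passed as lower in shoots. Of the 10 dehydrin loci of Arabidopsis, 6 had a named probe set and 3 were tested. Of these LTI30 and COR47 fell and AT1G54410 did not pass, where 12% of all tested probe sets were called lower. AT1G54410 (HIRD11), a small metal-binding dehydrin, had signals of 837.0 and 969.0 in shoots and of 902.9 and 1052 in buds. Its groups overlapped, with a log2 fold change of −0.11 that was 0.027 under equal array medians (95% interval −0.61 to 0.38, limma adjusted p = 0.735). The remaining 3 were below the filter. LEA (AT2G21490) had 5.86 and 5.43 in shoots and 4.32 and 8.71 in buds, and AT4G39130 had 4.43 and 7.98 in shoots and 0.412 and 4.30 in buds. AT4G38410 had 12.8 and 14.7 in shoots and 20.3 and 15.7 in buds. ERD10, the neighbour of COR47, and XERO1, the neighbour of LTI30, were not analysed here.

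LEA genes of other families gave a mixed picture. In a list of 38 loci that includes COR15A and COR15B, 27 had a named probe set and 6 were tested. COR15A and COR15B fell, 0 rose and 4 did not pass, where 12% of all tested probe sets were called lower and 10.2% higher. AT2G23120 had 431.4 and 412.0 in shoots and 652.8 and 638.1 in buds, so the groups were clearly separate, but its log2 fold change of −0.61 missed the threshold (limma adjusted p = 0.0545, from 0.0129 to 0.190 over the alternatives). AT2G46140 (LEA27) lay in the other direction, with 82.9 and 87.6 in shoots and 51.6 and 54.8 in buds (log2 fold change 0.68, adjusted p = 0.0584, from 0.0277 to 0.201 over the alternatives). AT2G44060 (LEA26, log2 fold change 0.14) and the drought-induced gene DI21 (−0.12, or 0.020 under equal array medians) overlapped between the groups. The median log2 fold change of the 4 loci other than COR15A and COR15B was 0.0089.

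**Figure D4:**
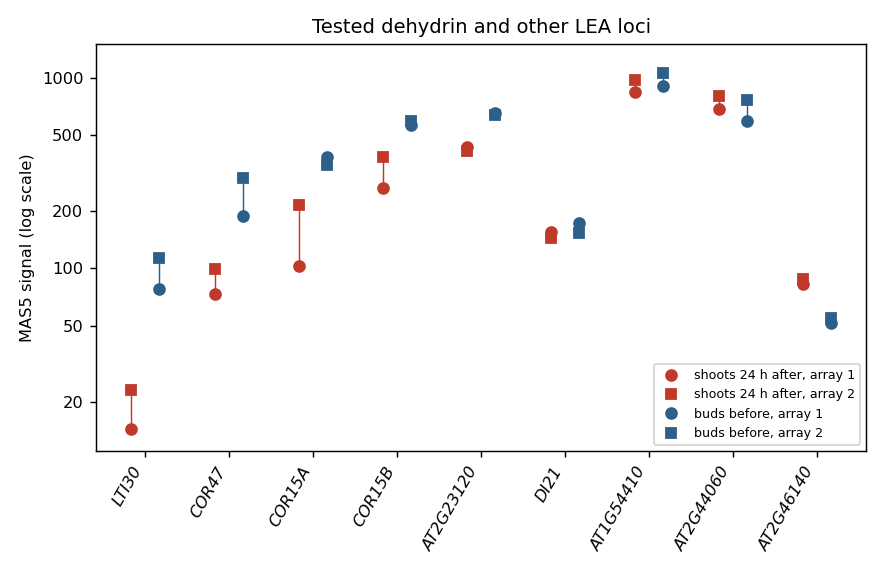
MAS5 signal (log scale) of the 9 tested dehydrin and other LEA loci on the 2 shoot arrays (red, left of each pair) and the 2 bud arrays (blue, right), ordered by fold change, with array 1 as circles and array 2 as squares. LTI30, COR47, COR15A, COR15B and AT2G23120 have both red points below both blue ones, AT2G46140 has both above, and DI21, AT1G54410 and AT2G44060 overlap.

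Most other LEA genes were at the level of the control probe sets. Of the 24 dehydrin and other LEA loci below the filter, 16 were on no array above the highest Bacillus control of that array. Those above it on both bud arrays were 4: AT4G38410, LEA4-5, AT3G17520 and AT3G02480, the last 3 of which are named after their values were seen. On both shoot arrays 1 was above the highest control, AT4G38410. LEA4-5, which encodes a LEA protein known from water deficit, had signals of 0.935 and 1.11 in shoots and of 42.9 and 27.8 in buds. AT3G17520 had 6.30 and 1.20 in shoots and 46.6 and 33.7 in buds, and AT3G02480 had 5.05 and 2.21 in shoots and 33.8 and 16.3 in buds. All 3 were below the highest Bacillus control on both shoot arrays, so no fold is given. The filter on the mean signal had kept them from the test, and because they were picked by their bud signals no p is given. With no filter 10.1% of the 22746 probe sets were called. AT3G17520 and AT3G02480 differed in shoots by more than 2-fold between arrays.

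Genes named after cold or drought in the gene table were counted as a further set, chosen after the values of the 4 genes were known. Of 69 such loci, 9 had a named probe set and 8 were tested; 6 fell and 0 rose, where 12% of all tested probe sets were called lower. Without the 4 genes 2 of 4 fell, COR27 and DI19. COR27 was already counted among the cold loci above, and DI21, which did not pass, among the other LEA loci. DI19, which encodes a drought-induced zinc-finger protein, had 531.9 and 615.1 in shoots and 855.8 and 1265 in buds. It fell by 0.86 on the log2 scale (SE 0.25, limma adjusted p = 0.0407), and the call was lost when bud array 2 (adjusted p = 0.171) or either shoot array (0.204 without array 1, 0.0781 without array 2) was left out, with equal medians (adjusted p = 0.0863), no filter (adjusted p = 0.0780) and without the intensity trend of the variance (adjusted p = 0.0525). SRC2, related to a cold-induced soybean gene, had 315.8 and 299.7 in shoots and 443.8 and 163.8 in buds (log2 fold change 0.19, adjusted p = 0.762). Its bud arrays lay on either side of the shoot arrays, and without bud array 1 it was called higher (log2 fold change 0.91, adjusted p = 0.0378). None of a list of 53 loci of abscisic acid and drought signalling had a named probe set here.

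The genes whose 4 signals most resembled the mean profile of COR15A, COR15B, COR47 and LTI30 were AT4G16190, CCL, AT1G70810, ZW9, PRA1.G2 and AT5G35735. Likeness was the Euclidean distance between log2 signals centred on each gene's mean over the 4 arrays, among 7352 tested probe sets with 1 named locus. Distances ranged from 0.0764 for AT4G16190 to 0.151 for AT5G35735, which is shorter than the distances of the 4 genes themselves from their mean, 0.321 for COR47 to 0.893 for LTI30. AT4G16190 had 323.3 and 499.8 in shoots and 1076 and 1230 in buds, and CCL had 369.2 and 576.2 in shoots and 1115 and 1352 in buds. In both, as in the 4 genes, shoot array 2 lay above shoot array 1 and below the buds. Both were chosen for their likeness on these arrays, so the shared order is not a separate result. With 4 arrays many genes share such a profile: 42 named probe sets were closer to the mean than COR47 and 784 were closer than LTI30.

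Each of the 4 genes also had a nearest single gene. That of COR15A was AAH, which encodes allantoate amidohydrolase, an enzyme of purine breakdown (distance 0.0809), and that of COR15B was AT5G37360 (0.0612). COR47 was nearest to AT5G35735 (0.188) and LTI30 to UGT72E1, which encodes a glucosyltransferase of lignin precursors (0.130). UGT72E1 had 12.1 and 21.1 in shoots and 64.3 and 102.0 in buds, and was chosen for this likeness, so no test is given; both its shoot signals were below 23.1. Among themselves the closest pair was COR15A and COR15B (0.589) and the most distant COR15B and LTI30 (1.56).

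Tissue markers could be checked only in part. Of 28 marker loci for shoot meristem, leaf photosynthesis, vascular tissue, trichomes and flowers, 5 had a named probe set. The meristem genes CLV3 (4.39 and 1.22 in shoots, 1.06 and 7.32 in buds) and UFO (5.72 and 0.932 in shoots, 7.64 and 1.29 in buds) were on no array above the highest Bacillus control. The light-harvesting gene LHCB4.2 had 922.0 and 1185 in shoots and 1105 and 1029 in buds (log2 fold change −0.03, or 0.11 under equal array medians, adjusted p = 0.939), and for LHCB4.1 the log2 fold change was 0.57 (adjusted p = 0.137). Neither leaf marker passed, but both shoot arrays of LHCB4.1, at 848.9 and 709.8, lay above the bud arrays, at 638.6 and 430.8. LHCB4.1 was called higher with spike scaling (log2 fold change 0.69). Under equal array medians a similar log2 fold change of 0.71 did not pass (limma adjusted p = 0.0704), nor did 0.53 under quantile normalization (adjusted p = 0.165). Adjusted p under spike scaling ran far below that under equal medians at similar fold changes, so it is not comparable with the other settings. The part of LHCB4.1 in the decreases was not tested. TRY, a trichome gene below the filter, had 17.7 and 17.5 in shoots and 32.5 and 26.1 in buds; its part in the decreases was not tested.

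The median signal was 40.9 and 40.6 on the shoot arrays and 46.3 and 43.6 on the bud arrays. Over the tested probe sets log2 signals correlated at 0.957 between the shoot arrays, 0.952 between the bud arrays and 0.808 to 0.895 between a shoot and a bud array, across genes, which are not independent replicates. When all arrays were given 1 median signal, the median log2 fold change over the tested array moved to 0.08, and the share of calls that were higher in shoots to 61.1%, against 45.9% as reported. Under that scaling COR15A, COR15B, COR47 and LTI30 had log2 fold changes of −1.16, −0.72, −1.34 and −2.24. Precision is limited throughout by having 2 arrays a group.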

How the data were processed

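MAS5 in GCOS produced the probe set values per the submitters' processing notes; no version is given in the sources used here. The authors deposited these as 1 linear signal intensity per probe set and array, and a mean of 100.0 on every array after 2% was trimmed from each end shows a common scaling. Detection calls were not used. After removal of the 64 controls, probe sets in the upper 60% by mean log2 signal were tested (13648, geometric mean 23.1 or more). Shoots and buds were compared over all 4 arrays with limma 3.58.1 in R 4.3.3 (eBayes with an intensity trend) on log2 signals, with Benjamini-Hochberg adjustment over all of these. Fold changes are ratios of geometric means.

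Genes were named through the platform annotation and the TAIR10.1 gene table: 13436 probe sets matched 1 locus, 503 had several genes and 8730 were unlisted. The 4 genes and the lists were chosen with earlier results of these data known. The rule for names took the 4 genes, all measured dehydrins, in each list the 3 tested loci with the smallest p and the 3 with the largest change, and the 6 genes of most similar profile. Other names were chosen after their values were seen. In 10 simulated sets of 13648 probe sets for shoots against buds, with 200 decreased, 8.6% of 2-fold and 83.4% of 4-fold decreases were recovered and 6.12% of calls were false; far more probe sets changed in the data, so these shares do not give the recovery there. Alternatives were other scalings, no filter, a pseudocount, no variance trend, a replicate block, each array left out, and, chosen after seeing the data, a floor on dim signals.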

Additional observations from a re-analysis of the deposited data

How the results depend on the processing

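COR15A, COR15B, COR47 and LTI30 kept their direction under all 12 alternatives. COR15B missed the threshold with equal medians (log2 fold change −0.72) and with no filter (−0.86). With 1 array left out, log2 fold changes lay between −1.83 and −0.77 for COR15A, −1.13 and −0.58 for COR15B and −1.81 and −1.14 for COR47; from 1 to 4 of the 4 genes, 1 to 2 dehydrins, 0 to 2 other LEA loci and 3 to 6 cold loci were called lower, and 0 to 1 cold loci higher. Calls on the whole array then lay between 432 and 1468 lower and 230 and 1181 higher. Of other LEA loci 1 was called lower with equal medians, and 1 was called higher with equal medians, quantile normalization or a replicate block. With quantile normalization or a replicate block 3 were called lower, AT2G23120 among them (log2 fold change −0.69, limma adjusted p = 0.0249 with quantile normalization). With no filter, where 10.1% of all probe sets were called, 4 were called lower: COR15A, LEA4-5, AT3G17520 and AT3G02480. The last 3 were picked by their bud signals and were at control level in shoots, so their calls are not read as a result. The replicate numbers name arrays and do not pair them by the labels (deviations of same-numbered arrays correlated at 0.225). With a replicate block 34.1% of the tested probe sets were called, against 22.1% as reported, with 2548 lower and 2109 higher. As calls rose across the array, the 4 genes passed with limma adjusted p from 8.90e-05 to 0.00445. LHCB4.1 and AT2G46140 were called higher (adjusted p = 0.0181 and 0.0277) and AT2G23120 lower (adjusted p = 0.0129). Loci near no change turned sign. AT1G54410 was 0.027 with equal medians and 0.0094 with spike scaling, DI21 0.020 and 0.0018, and LHCB4.2 0.11 and 0.094, or 0.058 with quantile normalization. With 1 array left out AT2G44060 ranged from −0.041 to 0.32, LHCB4.2 from −0.21 to 0.15, STZ from −0.28 to 1.22, SRC2 from −0.53 to 0.91 and the change of COR15A minus COR47 from −0.23 to 0.58. The causes were not tested. A lone array left in a group is assumed to vary like the other group. Signal over background limits LTI30 and AT4G33980 in shoots.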
